A study of Mus musculus with 12 samples.

Results

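Genes that fold, quality-check and clear proteins in the endoplasmic reticulum were followed in the hippocampus of APP/PS1 mice. The set was given by symbol and holds 36 genes of the 24736 in the total RNA table: chaperones, disulfide isomerases, sensors, transcription factors and degradation genes of the unfolded protein response. All 36 were present and all 36 passed the filter on low counts, which kept 18060 genes. APP/PS1 mice carry 2 transgenes, APPswe, an amyloid precursor protein with the Swedish mutation, and PSEN1dE9, a presenilin 1 that lacks an exon. The 3 APP/PS1 animals and their 3 wild-type (WT) littermates were males of 4 months, and 1 stranded total RNA library of the hippocampus was used per animal. The APP/PS1 libraries are replicates 1, 2 and 3, and the WT libraries are replicates 1, 2 and 4. The labels do not name the promoter that drives the transgenes. The whole hippocampus was taken, so more RNA per cell and a larger share of the cells that hold the RNA cannot be told apart.

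The endoplasmic reticulum is where secreted and membrane proteins, the amyloid precursor protein among them, enter the secretory route and take their shape. When unfolded protein builds up there, 3 sensors in its membrane respond. ATF6 is cut in the Golgi to release a transcription factor, IRE1 (gene Ern1) splices Xbp1 mRNA so that it encodes an active factor, and PERK (gene Eif2ak3) slows protein synthesis while favouring translation of ATF4. The first and second mainly raise chaperones and degradation genes, and the third raises genes of amino acid supply and, under long stress, of cell death. Cleavage, splicing and translation cannot be seen in gene counts, so these data show only the RNA of the sensors and of their targets. Members were placed in the ATF6 branch (13 genes), the IRE1/XBP1 branch (12 genes), the PERK/ATF4 branch (7 genes) or among folding genes usually described as constitutive (4 genes). The targets of ATF6 and XBP1 overlap in part, so a gene in one branch can also answer to the other.

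Promoters of many members hold a short element that recruits the released ATF6 fragment and XBP1 together with the factor NF-Y. This endoplasmic reticulum stress element (ERSE) is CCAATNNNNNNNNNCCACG, and a second form (ERSE-II) is ATTGGNCCACG. Both were searched on both strands of RefSeq promoter windows (GRCm38.p6, the same assembly as mm10), each reaching from 250 bases before to 50 bases after an annotated start. A window was found for 32 of the 36 members, and none for Manf, Hyou1, Atf6 and Derl1. The matches are shown because they describe the members by a feature of the DNA that does not rest on RNA values. They follow the branches only in part. Most holders of either element are in the ATF6 branch, and no PERK/ATF4 member holds either. Canx, placed among the constitutive genes, holds an ERSE. The windows of Sdf2l1, Pdia4 and Sel1l of the ATF6 branch hold neither element. The same is true of Dnajb9, Edem1, Uggt1, Xbp1, Derl2, Ern1, Sec61b and Txndc5 of the IRE1/XBP1 branch. Letters fixed by the motif are in capitals, and each match is written 5′ to 3′ on the strand that carries it.
Hspa5 ERSE, chr2:34772025-34772043, strand of the gene: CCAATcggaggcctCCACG
Hsp90b1 ERSE, chr10:86705638-86705656, strand of the gene: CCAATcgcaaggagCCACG
Hsp90b1 ERSE, chr10:86705533-86705551, opposite strand: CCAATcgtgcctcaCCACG
Dnajc3 ERSE, chr14:118937827-118937845, strand of the gene: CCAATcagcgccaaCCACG
Creld2 ERSE, chr15:88819520-88819538, opposite strand: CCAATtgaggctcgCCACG
Pdia6 ERSE, chr12:17266491-17266509, strand of the gene: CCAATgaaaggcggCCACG
Calr ERSE, chr8:84847075-84847093, opposite strand: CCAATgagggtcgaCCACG
Canx ERSE, chr11:50325800-50325818, strand of the gene: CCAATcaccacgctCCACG
Derl3 ERSE, chr10:75893242-75893260, opposite strand: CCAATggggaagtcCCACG
Syvn1 ERSE, chr19:6046532-6046550, strand of the gene: CCAATcggcggtagCCACG
Dnajb11 ERSE-II, chr16:22857852-22857862, strand of the gene: ATTGGcCCACG
Herpud1 ERSE-II, chr8:94386377-94386387, strand of the gene: ATTGGgCCACG

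The ERSE was present in the windows of 9 of 32 members (28.1%), against 39 of all 32851 windows (0.119%). In all, 37 genes of the genome had it, so 9 of those 37 are members. The ERSE was defined on promoters of genes in this very list, so its frequency here is a description of the list. ERSE-II was present in 2 of 32 members (6.25%), against 0.0365% of all windows. The related element UPRE, TGACGTGG, was in 1 member, Txndc5 (0.676% of windows), and the ATF4 element CARE, TGATGNAA, was in 5 members, Asns, Chac1, Herpud1, Trib3 and Txndc5 (3.97% of windows). UPRE read on its opposite strand begins with the CCACG of the ERSE, but no match of one motif overlapped a match of another in the members. A match is a run of letters and not a shown binding site.

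Hspa5 and Sdf2l1, the members with the smallest p-values below, differ in this respect. The Hspa5 window (chr2:34771840-34772139, plus strand) has 1 exact ERSE, in capitals, that ends 47 bases before the start. The Sdf2l1 window (chr16:17132334-17132633, minus strand) has no exact ERSE. The pieces CCAAT and CCACG, in capitals on either strand, are present but not spaced and ordered as in the ERSE.
Hspa5 promoter: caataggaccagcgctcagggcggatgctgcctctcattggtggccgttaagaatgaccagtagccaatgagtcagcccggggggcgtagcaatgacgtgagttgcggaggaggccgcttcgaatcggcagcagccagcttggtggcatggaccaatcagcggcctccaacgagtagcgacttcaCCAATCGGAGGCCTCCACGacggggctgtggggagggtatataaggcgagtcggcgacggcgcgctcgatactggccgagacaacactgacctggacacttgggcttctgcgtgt
Sdf2l1 promoter: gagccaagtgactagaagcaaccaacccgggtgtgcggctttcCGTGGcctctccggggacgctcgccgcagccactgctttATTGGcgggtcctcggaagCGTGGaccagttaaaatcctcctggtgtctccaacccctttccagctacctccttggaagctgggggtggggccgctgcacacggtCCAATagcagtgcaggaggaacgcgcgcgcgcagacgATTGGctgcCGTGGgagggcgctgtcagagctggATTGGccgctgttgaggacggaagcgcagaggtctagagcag

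The libraries held 120958765 to 134147448 estimated counts in APP/PS1 and 123759886 to 146904552 in WT. App, the gene of the amyloid precursor protein, checked the labels: it stood at 2948 to 3465 CPM (estimated counts scaled to a common library size) in APP/PS1 libraries and 1522 to 1580 CPM in WT libraries. The prion protein gene Prnp, whose sequences flank the transgenes in many such lines, stood at 937 to 1160 CPM in APP/PS1 libraries and 475 to 527 CPM in WT libraries. The log2 fold change was 1.04 for each (adjusted p 0.117 for App and 0.165 for Prnp in edgeR's test). APP/PS1 replicate 3 stood apart, with a median distance of 0.239 log2 units from each gene's mean, against 0.104 to 0.125 in the other 5 libraries. Markers of hippocampal excitatory neurons were all detected. Their 12 genes summed to 1402, 1242 and 719 CPM in APP/PS1 replicates 1, 2 and 3 and to 1232 to 1364 CPM in WT, so they were lowest in that library. The 20 choroid plexus epithelium genes, which mark the secretory lining of the ventricles, summed to 2819.7, 6187 and 3809 CPM in APP/PS1 replicates 1, 2 and 3 and to 2434 to 2866 CPM in WT, so they were highest in APP/PS1 replicate 2. Each of the 20 was detected.

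Most members had higher values in APP/PS1 hippocampus. Log2 fold changes, APP/PS1 over WT, were above 0 for 31 of 36 members, against 52.3% of all genes tested, and their median was 0.16, against 0.01 over all genes. Every APP/PS1 library lay above every WT library for 14 of the 36, and for 0 members in the other direction. Over all genes the groups did not overlap for 10.4%, and for 5.63% with APP/PS1 the higher. An unadjusted p under 0.05 was reached by 9 members, all higher in APP/PS1, against 3.42% of all genes in either direction and 1.9% with APP/PS1 higher. Members were chosen with earlier results of these data known, so these shares describe the list and are not a test of it. None of the 36 passed edgeR's quasi-likelihood test with Benjamini-Hochberg adjustment over all genes, in which 1 gene of 18060 passed (0.00554%). DESeq2 called 2 members, Hspa5 and Sdf2l1, among 26 genes (0.144%). The smallest adjusted p of a member in the edgeR test was 0.887, so each value below is a description of these 6 libraries rather than a call. Summed over all 36 members, the RNA came to 3622, 3631 and 3442 CPM in APP/PS1 replicates 1, 2 and 3, against 3236, 3114 and 3227 CPM in WT replicates 1, 2 and 4.

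**Figure D1:**
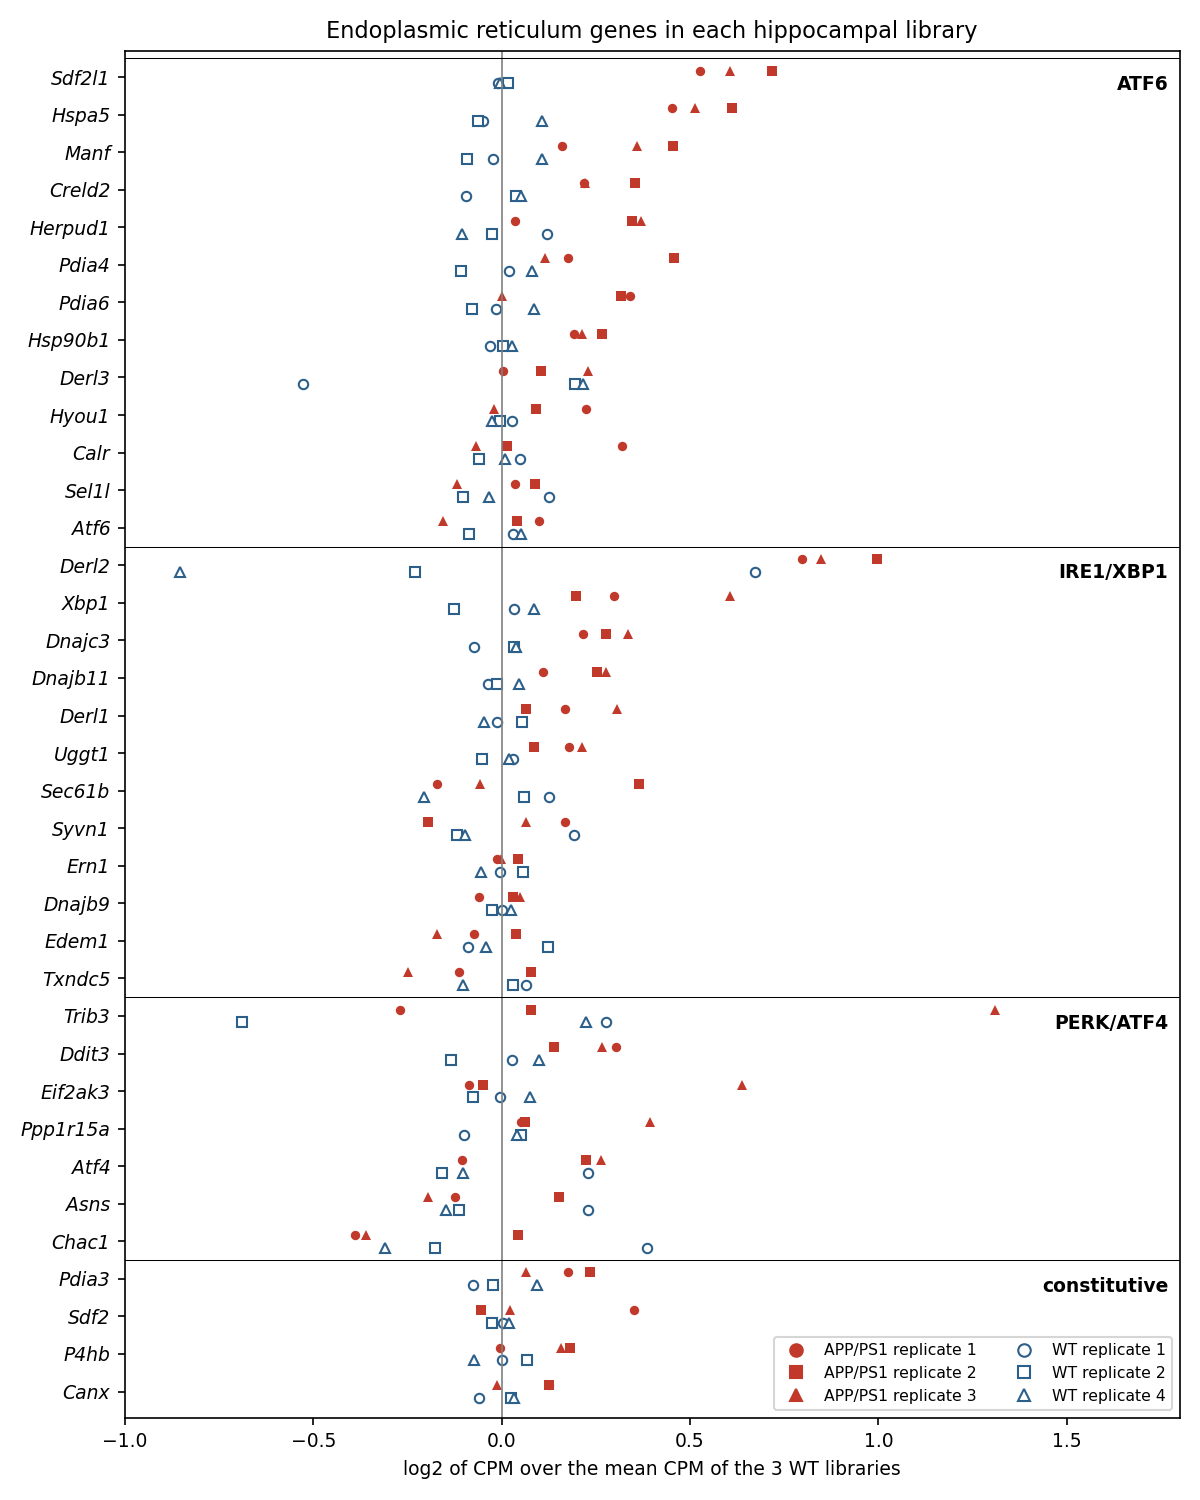
Each member's CPM in every library as log2 of its ratio to the mean of the 3 WT libraries (x axis), with members in rows grouped by branch and sorted by log2 fold change. Filled red symbols are APP/PS1 libraries and open blue symbols are WT libraries; all red symbols lie right of all blue ones for 14 of 36 members, Hspa5 and Sdf2l1 among them, while Ern1, Dnajb9, Sel1l and Atf6 show both colours mixed around 0.

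Among the chaperones, Hspa5, which encodes BiP, the Hsp70 chaperone that holds unfolded chains and keeps the sensors inactive, had the smallest p of all members and ranked 8 among the 18060 genes. It lies on chromosome 2, 34772090 to 34776529 (mm10). Hspa5 stood at 279.7, 313 and 292 CPM in APP/PS1 replicates 1, 2 and 3, against 198, 196 and 220.3 CPM in WT replicates 1, 2 and 4. The lowest APP/PS1 library was 1.27 times the highest WT library. Its log2 fold change was 0.53 (SE 0.08), a mean 44.1% higher, with an unadjusted p of 0.000518 and an adjusted p of 0.887 by edgeR's quasi-likelihood test.

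Sdf2l1, an endoplasmic reticulum protein that works with BiP and its co-chaperones, ranked 13. It stood at 7.28, 8.32 and 7.7 CPM in APP/PS1 libraries, against 5.02, 5.11 and 5.03 CPM in WT libraries. The WT values were almost equal, and the lowest APP/PS1 library was 1.43 times the highest of them. The log2 fold change was 0.62 (SE 0.11), with an unadjusted p of 0.00115 and an adjusted p of 0.887 by edgeR. Its paralog Sdf2 is usually described as not induced by stress. It stood at 35.2, 26.6 and 28.1 CPM in APP/PS1 mice and 27.7, 27.2 and 28.0 CPM in WT mice, with a log2 fold change of 0.12 (SE 0.12). The groups of Sdf2 overlapped, with APP/PS1 replicate 1 alone above the rest, and the log2 fold change was -0.01 without it.

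Dnajc3, which encodes the co-chaperone p58IPK, an inhibitor of PERK, stood at 80.8, 84.4 and 87.8 CPM in APP/PS1 libraries, against 66.2, 71.2 and 71.4 CPM in WT libraries. Its groups were separate, and its log2 fold change was 0.28 (SE 0.07). Hsp90b1, which encodes GRP94, the Hsp90 chaperone of this compartment, stood at 449, 473 and 456 CPM in APP/PS1, against 384, 394 and 401 CPM in WT. Its spread within each genotype was small, and its log2 fold change of 0.22 (SE 0.07) came with separate groups. Dnajb11, a co-chaperone that brings substrates to BiP, stood at 38.4, 42.4 and 43.1 CPM in APP/PS1, against 34.7, 35.3 and 36.7 CPM in WT. Its log2 fold change was 0.22 (SE 0.08), again without overlap. Unadjusted p in edgeR's test was 0.00837 for Dnajc3, 0.0133 for Hsp90b1 and 0.0312 for Dnajb11, with an adjusted p of 0.887 for each.

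The other chaperones differed less. Hyou1, the nucleotide exchange factor of BiP, had a log2 fold change of 0.10 (SE 0.08) with overlapping groups. Dnajb9, a co-chaperone widely used as a readout of XBP1, had 0.01 (SE 0.07), at 43.4 to 46.8 CPM in APP/PS1 mice and 44.5 to 46.0 CPM in WT mice. The log2 fold change was positive for all 8 chaperones, and its median was 0.22.

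Manf encodes a secreted neurotrophic factor that binds BiP inside the cell. It stood at 39.8, 48.8 and 45.7 CPM in APP/PS1 libraries, against 35.1, 33.4 and 38.4 CPM in WT libraries. The gap between the groups was narrow, 1.04 times, between APP/PS1 replicate 1 and WT replicate 4. The log2 fold change was 0.33 (SE 0.10), with an unadjusted p of 0.017 and an adjusted p of 0.887 in edgeR's test.

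**Figure D2:**
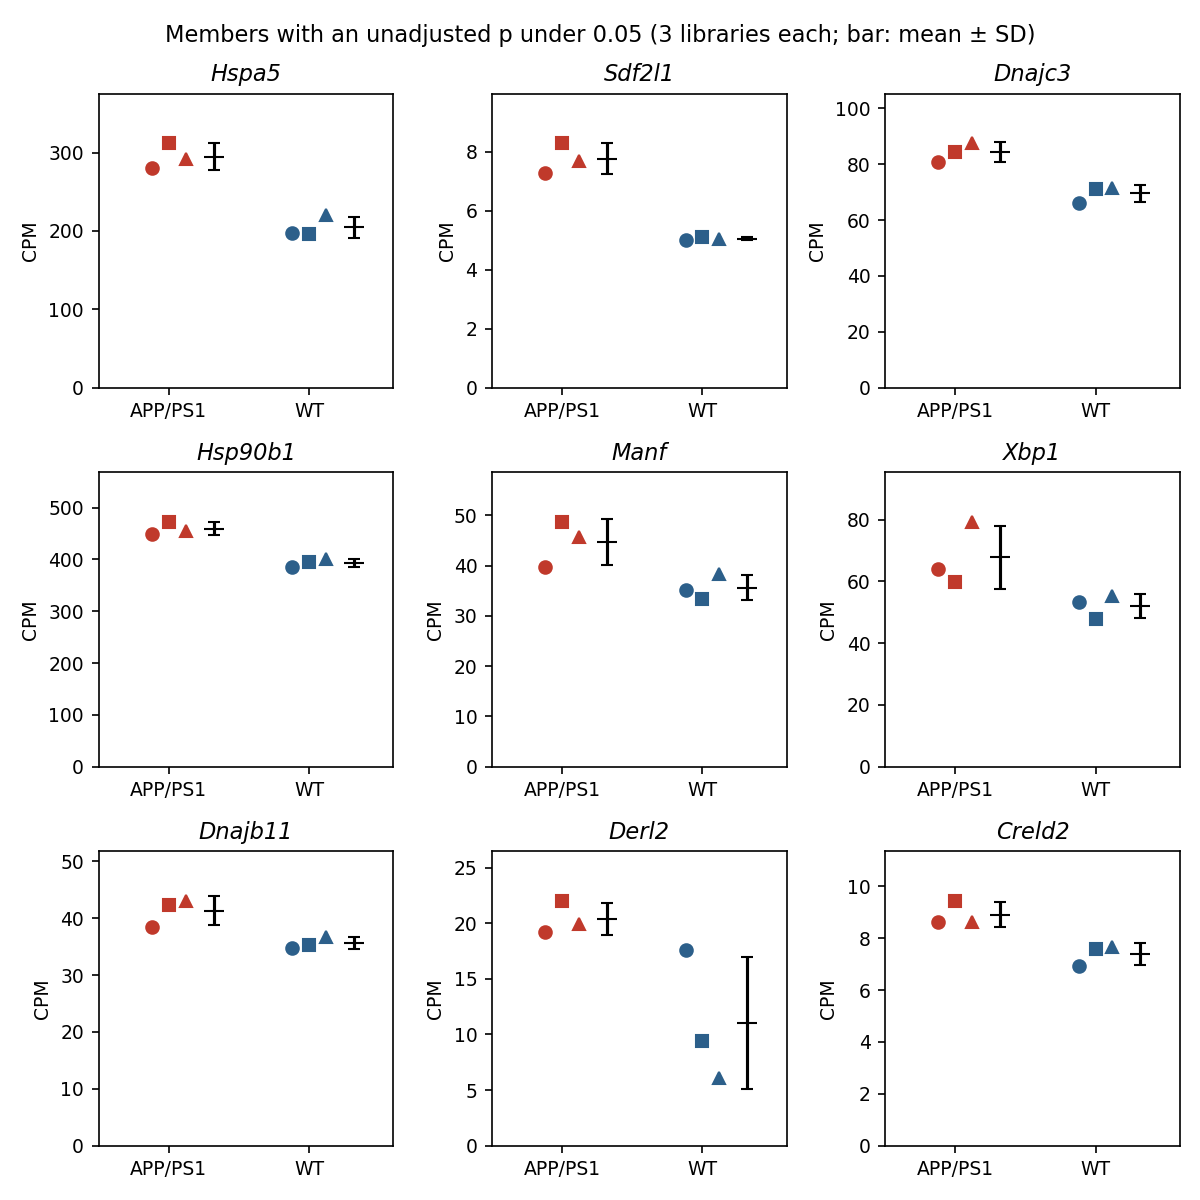
CPM (y axis, from 0) in the 3 APP/PS1 libraries (red, left) and the 3 WT libraries (blue, right) for the 9 members with an unadjusted p under 0.05, in order of p; circles are replicate 1, squares replicate 2 and triangles replicate 3 of APP/PS1 or replicate 4 of WT, and the black bar is the mean with its SD. The groups are separate in all 9 panels, widely for Hspa5 and Sdf2l1, while the WT values of Derl2 span 6.12 to 17.6 CPM.

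Of the 6 genes that make or rearrange disulfide bonds, 5 lay above 0, and the median log2 fold change was 0.19. Creld2, whose protein has disulfide isomerase activity and is induced by stress, stood at 8.61, 9.46 and 8.63 CPM in APP/PS1, against 6.92, 7.59 and 7.67 CPM in WT. Its groups were separate, with a log2 fold change of 0.27 (SE 0.11) and an unadjusted p of 0.0455. Pdia4, an isomerase with an extra thioredoxin domain, stood at 72.8, 88.5 and 69.8 CPM in APP/PS1, against 65.3, 59.8 and 68.1 CPM in WT. APP/PS1 replicate 2 was the high library, and the lowest APP/PS1 value was only 1.02 times the highest WT value. The log2 fold change of Pdia4 was 0.26 (SE 0.11), or 0.15 without that library.

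Pdia3 (ERp57), which works with the lectins on glycoproteins, stood at 198, 206 and 183 CPM in APP/PS1 mice and 166, 172 and 186 CPM in WT mice, with overlap at WT replicate 4 and a log2 fold change of 0.16 (SE 0.08). Pdia6, which limits the IRE1 signal, had 0.23 (SE 0.11), or 0.32 without APP/PS1 replicate 3, in which it stood at 70.5 CPM against 89.3 and 87.9 CPM in the other APP/PS1 libraries. P4hb, the classical disulfide isomerase, had 0.11 (SE 0.08) and Txndc5, another thioredoxin-domain member, -0.09 (SE 0.11).

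The lectin cycle holds glycoproteins until they are folded. Uggt1, the enzyme that re-marks unfolded glycoproteins for another round, stood at 102, 95.6 and 104 CPM in APP/PS1, against 92.1, 86.9 and 91.3 CPM in WT. Its groups did not overlap and its log2 fold change was 0.16 (SE 0.07). Calr, the soluble lectin calreticulin, stood at 569.7, 461 and 436 CPM in APP/PS1 mice and 472, 437 and 459 CPM in WT mice. The high value was that of APP/PS1 replicate 1 alone, and the log2 fold change was 0.10 (SE 0.12), or -0.02 without that library. Canx, the membrane lectin calnexin, had 0.08 (SE 0.08), with 444 to 488 CPM in APP/PS1 mice and 429 to 457 CPM in WT mice. Sec61b, a subunit of the channel through which chains enter, stood at 5.02, 7.29 and 5.44 CPM in APP/PS1 mice and 6.17, 5.89 and 4.91 CPM in WT mice, with no order between the genotypes and a log2 fold change of 0.07 (SE 0.19).

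Degradation genes send misfolded proteins back to the cytosol. Derl2, a membrane protein of this retrotranslocation route, stood at 19.2, 22.0 and 19.9 CPM in APP/PS1, against 17.6, 9.43 and 6.12 CPM in WT. The APP/PS1 values were close together and the WT values were spread widely, so the log2 fold change of 0.88 had an SE of 0.36 (unadjusted p = 0.0447, adjusted p = 0.887 in edgeR's test). Leaving out WT replicate 1 gave 1.40, and leaving out WT replicate 4 gave 0.59. Derl2 overlaps Mis12 by 274 bases, and the mean of Mis12 was 21.3 ± 2.01 CPM in APP/PS1 mice and 20.7 ± 1.42 CPM in WT mice (± SD over 3 libraries each). Derl1, its paralog, stood at 43.6, 40.5 and 47.9 CPM in APP/PS1, against 38.4, 40.2 and 37.5 CPM in WT. Its groups were barely separate, with a log2 fold change of 0.18 (SE 0.09), or 0.11 without APP/PS1 replicate 3. Herpud1, a scaffold of the ubiquitin ligase and a strong stress target in cultured cells, had 0.26 (SE 0.12), with APP/PS1 replicate 1 at 36.7 CPM inside the WT range of 33.3 to 39.0 CPM.

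Sel1l and Syvn1, which form the core ligase of this route, differed by 0.00 (SE 0.09) and 0.02 (SE 0.13) on the log2 scale. Sel1l stood at 251, 261 and 226 CPM in APP/PS1 mice and 268, 229 and 239.7 CPM in WT mice, with no order between the genotypes. Edem1, which picks out misfolded glycoproteins and is a common XBP1 readout, had -0.07 (SE 0.10). Derl3, the third derlin, had 0.11 (SE 0.26) at 1.28, 1.38 and 1.5 CPM in APP/PS1, against 0.888, 1.47 and 1.49 CPM in WT.

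The RNA of Atf6 and Ern1 differed little between the genotypes. Atf6 stood at 142, 136 and 119 CPM in APP/PS1 mice and 135, 125 and 137 CPM in WT mice, a log2 fold change of -0.0006 (SE 0.09). Ern1 stood at 17.8, 18.6 and 18.0 CPM in APP/PS1 mice and 18.0, 18.7 and 17.3 CPM in WT mice, a log2 fold change of 0.01 (SE 0.08). Eif2ak3 had 0.21 (SE 0.20), which rests on APP/PS1 replicate 3. Its value there was 50.002 CPM, against 30.3 and 31.0 CPM in the other APP/PS1 libraries and 30.5 to 33.8 CPM in WT, and without that library its log2 fold change was -0.07.

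Among the transcription factors, Xbp1 stood at 64.1, 59.8 and 79.4 CPM in APP/PS1, against 53.4, 47.8 and 55.3 CPM in WT. The groups were separate, with APP/PS1 replicate 3 the highest, and the log2 fold change was 0.38 (SE 0.13, unadjusted p = 0.0213, adjusted p = 0.887 in edgeR's test), or 0.24 without that library. These counts join spliced and unspliced Xbp1. Ddit3, which encodes CHOP, the factor tied to cell death under long stress, stood at 10.3, 9.2 and 10.1 CPM in APP/PS1, against 8.52, 7.62 and 8.95 CPM in WT. Its groups just failed to touch, and the log2 fold change was 0.24 (SE 0.11). Ddit3 shares 77 bases with its neighbour Mbd6, which had a log2 fold change of -0.07 (SE 0.09). Atf4, whose protein is set mainly by translation, stood at 78.6, 98.6 and 101 CPM in APP/PS1 mice and 99.1, 75.7 and 78.7 CPM in WT mice. Each genotype had both high and low libraries, and the log2 fold change was 0.14 (SE 0.15).

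Targets of the PERK and ATF4 arm did not share one direction. Ppp1r15a (GADD34), the phosphatase subunit that ends the block on translation, stood at 15.2, 15.3 and 19.2 CPM in APP/PS1, against 13.7, 15.2 and 15.1 CPM in WT. Its groups were barely separate, with 15.186 CPM in APP/PS1 replicate 1 and 15.185 CPM in WT replicate 2. Its log2 fold change was 0.18 (SE 0.12), or 0.05 without APP/PS1 replicate 3. Asns, asparagine synthetase, stood at 58.3, 70.6 and 55.5 CPM in APP/PS1 mice and 74.4, 58.8 and 57.4 CPM in WT mice, a log2 fold change of -0.05 (SE 0.14). Chac1, an enzyme that breaks down glutathione, had -0.22 (SE 0.23), with the highest value, 6.30 CPM, in WT replicate 1. Trib3, a pseudokinase induced by CHOP, was near the limit of the data at 0.126 to 0.505 CPM and had 0.54 (SE 0.55), or -0.09 without APP/PS1 replicate 3.

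By branch, the ATF6 genes had a median log2 fold change of 0.23, with 12 of 13 positive, 6 without overlap and 5 with an unadjusted p under 0.05. The IRE1/XBP1 genes had a median of 0.11, with 10 of 12 positive, 6 without overlap and 4 under 0.05. The PERK/ATF4 genes had a median of 0.18, with 5 of 7 positive, 2 without overlap and 0 under 0.05. That median rested on APP/PS1 replicate 3, and without that library it was 0.02. The 4 constitutive genes all had positive values with a median of 0.12 and none without overlap. Over all genes tested, 52.3% were positive and 5.63% had separate groups with APP/PS1 higher. An unadjusted p under 0.05 in edgeR's test with APP/PS1 higher was reached by 1.9% of all genes. The difference between branches was not tested. Centred on each gene's mean, the ATF6 branch lay at 0.09, 0.21 and 0.09 log2 units in APP/PS1 replicates 1, 2 and 3, against -0.12, -0.11 and -0.05 in WT replicates 1, 2 and 4. The PERK/ATF4 branch lay at -0.16, 0.02 and 0.20 in APP/PS1 and 0.11, -0.16 and -0.04 in WT, so its libraries did not sort by genotype.

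**Figure D3:**
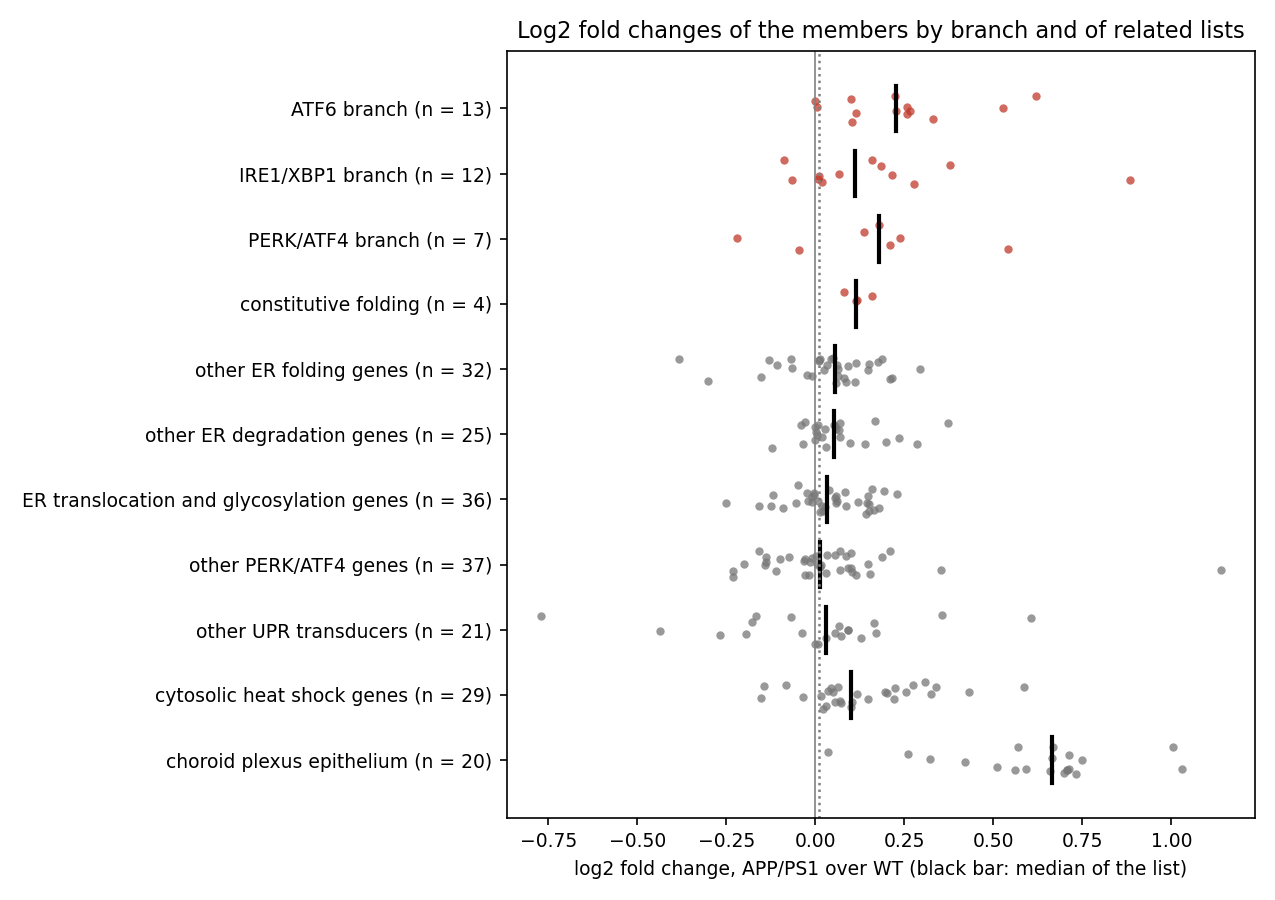
Log2 fold changes (x axis, APP/PS1 over WT) of the members by branch (red) and of the genes tested in related lists (grey), 1 point per gene, with the median of each list as a black bar. The dotted line is the median of all 18060 genes, 0.01; the ATF6 branch has its median at 0.23, the other endoplasmic reticulum lists lie between 0.01 and 0.05, and the choroid plexus list lies at 0.67.

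Members that carry the printed elements all had positive log2 fold changes in edgeR with all 6 libraries. Syvn1, Calr and Derl3 among them changed sign in at least 1 alternative fit. The 9 with an ERSE had a median of 0.22, between 0.02 for Syvn1 and 0.53 for Hspa5, and 4 of them had separate groups. Dnajb11 and Herpud1, the holders of ERSE-II, had 0.22 and 0.26. The 21 members with a window and neither element had a median of 0.14, with 17 positive and 7 separate, Sdf2l1 and Xbp1 among them. Over all genes tested, 52.3% were positive and 5.63% were separate with APP/PS1 higher. Outside the list, the 13 tested genes with an ERSE in their window had a median of 0.03, with 7 positive. The element occurred both in members with separate groups and in members such as Syvn1, Calr and Canx whose groups overlap.

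**Figure D4:**
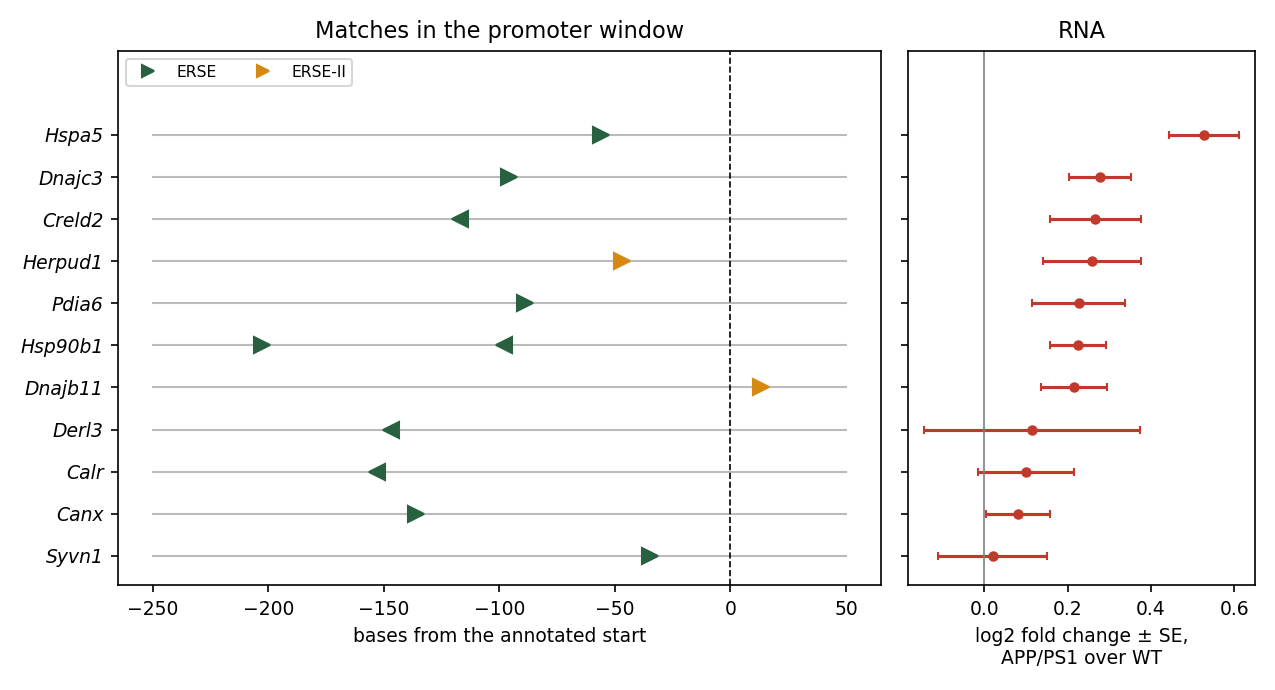
Place of each exact ERSE (green) and ERSE-II (orange) match relative to the annotated start (left panel, in bases, dashed line at the start; arrows point right on the strand of the gene and left on the opposite strand) and log2 fold change with its SE (right panel) for the 11 members that hold one. Members are sorted by log2 fold change, with Hspa5 at 0.53 on top and Syvn1 at 0.02 at the bottom; Hsp90b1 holds 2 matches and Dnajb11 has its match after the start.

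Lists of other genes of the same compartment had medians nearer 0, a difference that was not tested. Of 32 other folding genes, 23 lay above 0, and the median log2 fold change was 0.05. Tmx1, a membrane thioredoxin, had 0.30 (SE 0.11), Fkbp14, a prolyl isomerase, 0.22 (SE 0.10), and the calcium-binding proteins Rcn3 and Rcn1 had -0.38 (SE 0.15) and -0.30 (SE 0.19). Of 25 other degradation genes, 20 were positive, with a median of 0.05. Selenos, a selenoprotein of the same retrotranslocation route, stood at 22.4, 22.5 and 30.2 CPM in APP/PS1, against 18.9, 18.8 and 20.3 CPM in WT. Os9, a lectin of that route, stood at 127, 103.2 and 129 CPM in APP/PS1, against 95.3, 102.7 and 97.5 CPM in WT. The groups of both were separate, and they differed by 0.37 (SE 0.14) and 0.29 (SE 0.11) on the log2 scale. The segregase partners Ubxn6 and Nploc4 had -0.12 (SE 0.10) and -0.04 (SE 0.08).

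Genes of translocation and glycosylation had a median of 0.03, with 23 of 36 positive, Tram1 at 0.23 (SE 0.08), Spcs2 at 0.19 (SE 0.07), Ost4 at -0.25 (SE 0.09) and Serp2 at -0.16 (SE 0.11). The 37 tested PERK and ATF4 genes outside the members had a median of 0.01, with 21 positive and 0 under an unadjusted p of 0.05. Cebpg, a partner of ATF4, had 0.21 (SE 0.11) and Vldlr 0.19 (SE 0.11), and the serine synthesis genes Psat1 and Phgdh had -0.23 (SE 0.11) and -0.14 (SE 0.10). The 21 other transducers of the response had a median of 0.03, with 12 positive. Casp12 had 0.61 (SE 0.48), Zbtb8os 0.17 (SE 0.13), Mapk8 -0.44 (SE 0.24) and Creb3l2 -0.17 (SE 0.10). Cytosolic heat shock genes, which answer to unfolded protein outside this compartment, had a median of 0.10, with 25 of 29 positive. The co-chaperones Ptges3 and Chordc1 had 0.33 (SE 0.08) and 0.34 (SE 0.09), and Dnajb6 and Hspa2 had -0.15 (SE 0.16) and -0.14 (SE 0.21). Groups were separate with APP/PS1 higher for 2 other folding, 5 other degradation and 6 translocation and glycosylation genes. The same held for 0 other PERK and ATF4 genes, 1 other transducer and 6 heat shock genes, against 5.63% of all genes. Groups were separate with APP/PS1 lower for 2 folding genes, 1 translocation and glycosylation gene and 2 transducers, against 860 of all 18060 genes. No gene of these lists passed edgeR's test over all genes.

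The choroid plexus epithelium secretes much protein, and its markers also had higher values in APP/PS1: all 20 lay above 0, 9 of them with an unadjusted p under 0.05 and 6 with separate groups, and the median log2 fold change was 0.67. With APP/PS1 higher, 1.9% of all genes had such a p in edgeR's test and 5.63% had separate groups. Among the APP/PS1 libraries, the summed choroid plexus level, Hspa5 and Sdf2l1 had the same order, lowest in replicate 1 and highest in replicate 2. Hsp90b1, Manf, Creld2 and Derl2 also had this order, and Dnajc3, Xbp1 and Dnajb11 did not. In APP/PS1 replicate 1 the list lay at -0.21 log2 units, within the WT range of -0.37 to -0.15, while Hspa5 there, 279.7 CPM, was above every WT library. Without APP/PS1 replicate 2, the library with the highest choroid plexus values, the log2 fold change was 0.48 for Hspa5 and 0.57 for Sdf2l1. In that fit it was 0.20 for Hsp90b1, 0.26 for Manf, 0.22 for Creld2 and 0.82 for Derl2. Their unadjusted p by edgeR was then 0.045, 0.0569, 0.124 and 0.105, and that of Dnajb11 was 0.0824. Without APP/PS1 replicate 3 the log2 fold change was 0.53 for Hspa5 and 0.62 for Sdf2l1, and the median of all members was 0.125. The part of choroid plexus content or other cell composition in the values of Hspa5, Sdf2l1 and the other members was not tested.

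With each of the 6 libraries left out in turn, Hspa5, Sdf2l1 and Dnajc3 kept an unadjusted p under 0.05 in all 6 fits. Their log2 fold changes ran from 0.48 to 0.58, from 0.57 to 0.67 and from 0.24 to 0.31. Hsp90b1 kept it in 5 of the fits, Xbp1 in 4, Manf in 3, and Creld2, Dnajb11 and Derl2 in 1 each. DESeq2's adjusted p was 0.000251 for Hspa5 and 0.000202 for Sdf2l1. Over all settings tried it reached 0.991 and 0.995, each in an edgeR fit with 1 library left out. Hspa5 overlaps Rabepk by 1921 bases, and the mean of Rabepk was 15.9 ± 0.192 CPM in APP/PS1 mice and 15.7 ± 0.254 CPM in WT mice (± SD over 3 libraries each).

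**Figure D5:**
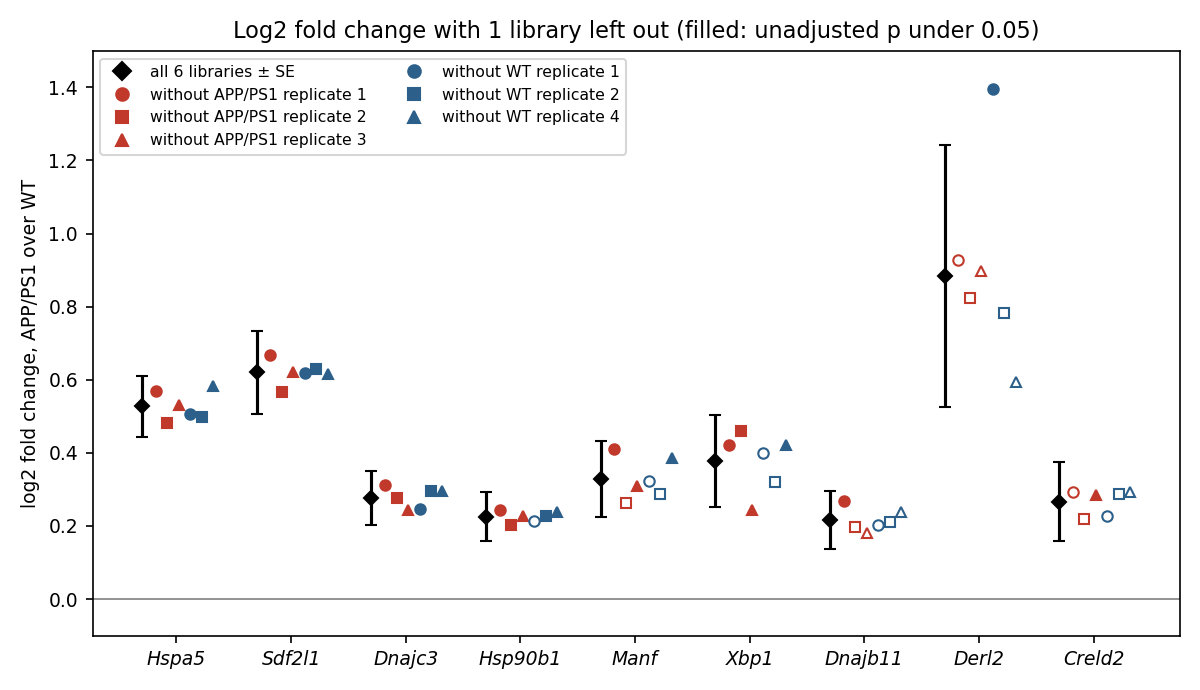
Log2 fold change (y axis, APP/PS1 over WT) of the 9 members with an unadjusted p under 0.05, with all 6 libraries (black diamond ± SE) and with each library left out in turn (red, an APP/PS1 library; blue, a WT library). Filled symbols have an unadjusted p under 0.05 in that fit; Hspa5, Sdf2l1 and Dnajc3 are filled throughout, and Derl2 moves between 0.59 and 1.40.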

How the data were processed

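Total RNA of mouse hippocampus was used, and the small RNA table was not used here. The deposited table gives whole-number estimated counts per gene symbol. HISAT2, StringTie, DESeq and the build mm10 are listed, per the submitters' processing notes, without role or version. Not given in the sources used here are the counting step, annotation, strand setting and filters. Reads of overlapping genes may therefore be shared. The value 4 occurred 1817 times against 897 times for 3, so 1 fragment was taken to stand for about 4 estimated counts, and the depth in fragments is uncertain. Variation between libraries limits the precision for abundant genes. The common biological coefficient of variation, 26.5%, is 1 value over all genes tested and does not describe the abundant genes alone.

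APP/PS1 and WT libraries, 3 each, were compared in R 4.3.3 by the quasi-likelihood test of edgeR 4.0.16 with TMM scaling, edgeR's default expression filter, no covariate and Benjamini-Hochberg adjustment over all 18060 genes at 0.05. The SE was derived from the fold change and the F statistic. CPM are not per gene length, so levels were not compared between genes. Each library was taken to be a separate animal. The procedure was run on simulated counts with planted changes larger than those of the members. The simulation therefore does not show whether changes of the size reported here would be called. Alternatives were DESeq2 1.42.0, limma-voom (limma 3.58.1), other size factors and filters, a block on replicate number, and fits without each library in turn. Division by 4 was added after seeing the data. Members and lists were chosen with earlier results of these data known. Library values are given for members with an unadjusted p under 0.05 or no overlap between genotypes and for the member of each role with the highest mean CPM, and from each other list up to 2 genes per direction with the smallest p are named. Library values of other members, such as Sdf2, Ern1, Eif2ak3 and Derl3, were added after they were seen. Coordinates and promoter windows come from RefSeq (GRCm38.p6).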

Additional observations from a re-analysis of the deposited data

How the results depend on the processing

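In 13 alternatives the 9 members with an unadjusted p under 0.05 kept a positive log2 fold change, and 3 of them, Hspa5, Sdf2l1 and Dnajc3, stayed under 0.05 in every one. The 9 were picked by their p in these same libraries, and every alternative reuses those libraries in whole or in part. A kept sign is therefore not an independent test. Of the other 27 members, 13 changed sign in at least 1 alternative. DESeq2 called 26 genes, 2 of them members, against 1 gene and 0 members in edgeR. With the replicate number as a block 2 genes and 0 members passed. In the blocked fit APP/PS1 replicate 3 and WT replicate 4 had no partner. Its log2 fold changes rested on replicates 1 and 2 of each genotype. The numbers 1 and 2 that both genotypes share did not pair the libraries (correlations of their deviations 0.0882 and -0.0441). With 1 library left out, 0 to 6 genes and 0 members passed edgeR's test, of 18302 to 18381 genes tested. Genes at an unadjusted p under 0.05 numbered 371, 345 and 360 without WT replicates 1, 2 and 4. They numbered 1501, 973 and 737 without APP/PS1 replicates 1, 2 and 3. In these 6 fits the median of the members lay between 0.125 (APP/PS1 replicate 3 left out) and 0.184 (WT replicate 4 left out), and 27 to 33 members had positive values. The cause was not tested. The number of members with an unadjusted p under 0.05 was 4, 4 and 6 without WT replicates 1, 2 and 4. It was 8, 6 and 11 without APP/PS1 replicates 1, 2 and 3. The median of the IRE1/XBP1 branch was 0.05 with the replicate block and 0.16 without APP/PS1 replicate 1, and that of the PERK/ATF4 branch was 0.0231 with the block and 0.0178 to 0.242 with 1 library left out. Trib3, at under 1 CPM, did not pass the filter once estimated counts were divided by 4. Other size factors, filters, limma-voom and division by 4 left the counts of genes and members past the threshold at 1 and 0.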

Other observations

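Besides the choroid plexus list, whose 20 genes all lay above 0, the lists of cell type markers had medians below 0. All 12 microglial genes lay below 0, at a median log2 fold change of -0.21, and summed to 289, 249.7 and 175 CPM in APP/PS1 replicates 1, 2 and 3 and to 246 to 286 CPM in WT. Groups were separate with APP/PS1 lower for 3 of the 12, against 860 of all 18060 genes. All 12 myelin genes had negative values with a median of -0.25, and 0 of them had separate groups. In each of these 2 lists 1 gene had an unadjusted p under 0.05 in edgeR's test, against 274 of all genes with APP/PS1 lower. The myelin genes summed to 2804, 3390 and 2734 CPM in APP/PS1 replicates 1, 2 and 3. In WT replicates 1, 2 and 4 they summed to 4280, 3227 and 2912 CPM, so WT replicate 1 was the highest. Of 12 astrocyte genes 5 were positive, with a median of -0.10, of 16 endothelial and mural genes 5, with a median of -0.02, and of 12 pan-neuronal genes 2, with a median of -0.12. Among the endothelial and mural genes, 2 were separate with APP/PS1 higher and 1 with APP/PS1 lower. The microglial and hippocampal excitatory neuron lists were lowest in APP/PS1 replicate 3, at -0.53 and -0.76 log2 units from the gene means. In that library Hspa5 stood at 292 CPM and Sdf2l1 at 7.7 CPM, between their values in the other APP/PS1 libraries.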
